A study of Mus musculus with 8 samples.

Results

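Very long 3' untranslated regions (3' UTRs) were examined in RNA recovered with an antibody against CPEB2 from mouse mammary epithelial cells. A row of the authors' table is the 3' UTR of 1 Ensembl transcript with mm10 coordinates. A row counted as very long when it spanned at least 6000 bases and had a mean normalized count of at least 10 over all 8 libraries. Of 20586 rows, 210 were that long, 18 of these had a lower mean count, and 192 were kept. The mean count was used to choose the rows and is given only as a description. The long rows had a median length of 7137 bases and a longest length of 23858 bases. They were set against 1760 rows of 1500 to 2200 bases with the same minimum mean count, whose median length was 1819.5 bases. Among the 192, 2 pairs of rows covered nearly the same interval with the same interaction (Rsf1 and a row without a symbol, Nhsl2 and a row without a symbol), which leaves 190 distinct genes.

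The libraries came from Cpeb2 knockout (KO) and wild-type (WT) mice, per the labels of strain C57BL/6J 129, and formed 4 groups of 2: KO IP, WT IP, KO Input and WT Input. IP is the RNA that came down with the anti-CPEB2 antibody, and Input is the RNA of the starting lysate, so KO IP shows what the antibody preparation recovered from cells that carry the deletion. Glands were dissociated with enzymes and an epithelium-enriched fraction was used without culture. The samples came from RIP experiments 2 and 3, and the labels also number each genotype 3 or 4 without saying what that number stands for. The age of the mice, the part of Cpeb2 that was deleted and whether the libraries of a group came from separate animals are not given in the labels, so the authors' p-values rest on a spread among libraries that may be technical. Poly(A) RNA was selected from Input samples only, so each IP to Input difference also holds the difference between unselected and selected RNA.

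The 3' UTR follows the stop codon and carries the binding sites of RNA-binding proteins and microRNAs that set an mRNA's stability, translation and place in the cell. CPEB proteins bind U-rich elements there, the cytoplasmic polyadenylation elements, and control the length of the poly(A) tail and translation. Very long 3' UTRs are common among genes for transcription factors, RNA-binding proteins, kinases and neuronal proteins. A longer region collects more reads from each transcript, so levels were compared between genes only per kilobase.

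A few of these regions hold the genes of microRNAs. By RefSeq coordinates on GRCm38.p6, 5 of the 192 long rows (2.60%) held a microRNA hairpin on their own strand, against 1 of the 1760 shorter rows (0.0568%). Per megabase of row this was 3.37 hairpins in long rows and 0.311 in shorter rows. The mature microRNAs are shown because their sequence lies inside the long rows of Igf2bp1 (chr11:95957163-95963499), Tnrc6b (chr15:80929477-80941086), Ubn2 (chr6:38502288-38512763), Vezt (chr10:93961522-93970192) and Zbtb20 (chr16:43618745-43642602). Capitals mark the seed, bases 2 to 8 from the 5′ end, and no seed occurs more than once among them.
mmu-miR-3063-5p (Igf2bp1): uGGAGAUCagguuugcacacu
mmu-miR-3063-3p (Igf2bp1): uGAGGAAUccugaucucucgcc
mmu-miR-5113 (Tnrc6b): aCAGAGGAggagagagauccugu
mmu-miR-7670-5p (Ubn2): aUUCAGAUgggcagauugggaa
mmu-miR-7670-3p (Ubn2): uUCCCUUUcugaauaucuguaga
mmu-miR-331-5p (Vezt): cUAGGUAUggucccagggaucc
mmu-miR-331-3p (Vezt): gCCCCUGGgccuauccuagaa
mmu-miR-568 (Zbtb20): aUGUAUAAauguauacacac
The libraries measured the host 3' UTR and not these mature RNAs. How reads from a hairpin were counted is not given in the labels.

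The rows carry the label of 3' UTRs, and RefSeq coordinates could be set beside 189 of the 192 by gene symbol. Of those, 151 lay wholly inside the RefSeq gene and 149 (78.8%) ended within 50 bases of its end. The long rows belonged to genes with a median span of 84685 bases, against 29987 bases for the genes of the shorter rows. Another row shared bases with 14 long rows (7.29%) and with 190 shorter rows (10.8%), and reads in shared bases cannot be told apart. Long rows lay on 20 chromosomes, 104 of them on the minus strand. Their median mean normalized count was 182, against 60.3 for the shorter rows, but per kilobase it was 25.02 against 32.74. Zbtb20, a zinc finger repressor with the longest row, also had the highest mean count of all rows, 4209, or 176 per kilobase. Prlr, the prolactin receptor, had a mean count of 2477 (319.97 per kilobase), Nfib, a nuclear factor I protein, 2268 (342 per kilobase), and Lpp, a LIM protein of focal adhesions, 1841 (139 per kilobase).

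The targeted gene was no long row, as the Cpeb2 row spans 3778 bases. It stood at 7.43 in KO IP and 9.64 in WT IP, and at 5.98 in KO Input and 6.11 in WT Input, so this row does not show the deletion. Markers of several cell types were measured in Input, on a log2 scale of normalized counts. The epithelial markers Epcam and Krt8 stood at 8.16 and 7.55 in KO Input and at 8.33 and 7.57 in WT Input. The endothelial gene Flt1 stood at 9.39 in KO Input and 9.20 in WT Input, and the fibroblast gene Col1a1 at 9.73 in KO Input and 9.48 in WT Input. RNA of other cell types was thus present in the enriched fraction. No marker gene examined had a very long row. In bulk samples fewer cells of a type and less RNA per cell cannot be told apart, and the depth of each library is unknown here.

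The main comparison asked whether long 3' UTRs were recovered over Input differently in the 2 genotypes. It used the authors' interaction, the log2 IP to Input difference in WT minus that in KO, so a positive value means more recovery in WT. The interaction of long rows had a median of 0.57 (interquartile range 0.23 to 0.85), against 0.22 for the shorter rows (-0.17 to 0.67). It was above 0 in 167 of 192 long rows (87.0%), against 1147 of 1760 shorter rows (65.2%) and 56.9% of all 9917 rows with a mean count of at least 10. The median of all rows with an adjusted p was itself 0.23, and 143 long rows (74.5%) lay above that value, against 860 shorter rows (48.9%). The value was at least 1 in 32 long rows (all rows, 11%, shorter rows, 12.2%) and at most -1 in 1, Fam53a. Single rows spread widely about the median, with an SD of 0.60 over long rows and 0.65 over shorter rows. These are counts and medians over rows of the same libraries, and rows are not replicates.

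By the authors' Wald test, 4 of the 160 long rows with an adjusted p passed 0.05, all higher in WT, and 0 were lower. That share, 2.50%, was near the 2.25% of all tested rows and the 2.18% of tested shorter rows. Of all 5327 tested rows, 0 passed as lower in WT, so the single direction is shared by rows of every length. At an adjusted p of 0.10 (Wald test), 8 long rows passed, against 3.17% of all tested rows and 3.27% of tested shorter rows. At an unadjusted p under 0.05, 45 of the 192 long rows were higher in WT (23.4%) and 0 were lower. Over all rows 7.86% were higher and 0.877% lower, and over shorter rows 8.3% were higher and 0.341% lower. This share also depends on the number of reads, which was greater in long rows. The share higher in WT was larger in long rows in each of the 6 classes of mean count used below, but to unlike degrees. At 10 to 20 counts it rested on 2 of 11 long rows, Pde1c and C77370. A high WT IP value helped both to be kept, so the share in that class is only a description. At 160 to 320 counts the share was 17.0% of long rows and 16.7% of shorter rows, and at 320 or more 37.9% and 16.2%. To pass, a row needed a Wald score of 3.26, which at the median standard error of 0.43 of the 160 long rows with an adjusted p is a log2 interaction of 1.40, or 2.64-fold. The interaction of most long rows lay well under that value. The other 32 long rows had no adjusted p, and the share with one was 83.3% in long rows and 62.6% in shorter rows.

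Rows with more reads have smaller standard errors, so the comparison was repeated at equal mean count. Medians were taken within 6 classes of mean count and weighted by the number of long rows. The interaction was then 0.57 for long rows and 0.22 for shorter rows, a difference of 0.35. Long rows had the higher median in each class. In the class of 10 to 20 counts the median was 0.75 over 11 long rows (7 above 0) and 0.17 over 280 shorter rows (162 above 0). The interquartile range of those 11 long rows ran from -0.27 to 1.32, and their median standard error was 1.07. They include Pde1c (2.89) and C77370 (2.36), which a high WT IP value helped to be kept. The gap in this lowest class is therefore not independent of the choice of rows. In the class of 160 to 320 it was 0.57 over 47 long rows, of which 47 were above 0, and 0.28 over 216 shorter rows, of which 157 were above 0. At 320 counts or more it was 0.58 over 58 long rows (56 above 0) and 0.20 over 105 shorter rows (84 above 0). Equal mean count is not equal level: in that highest class the median mean count per kilobase was 73.5 in long rows and 231 in shorter rows.

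**Figure D1:**
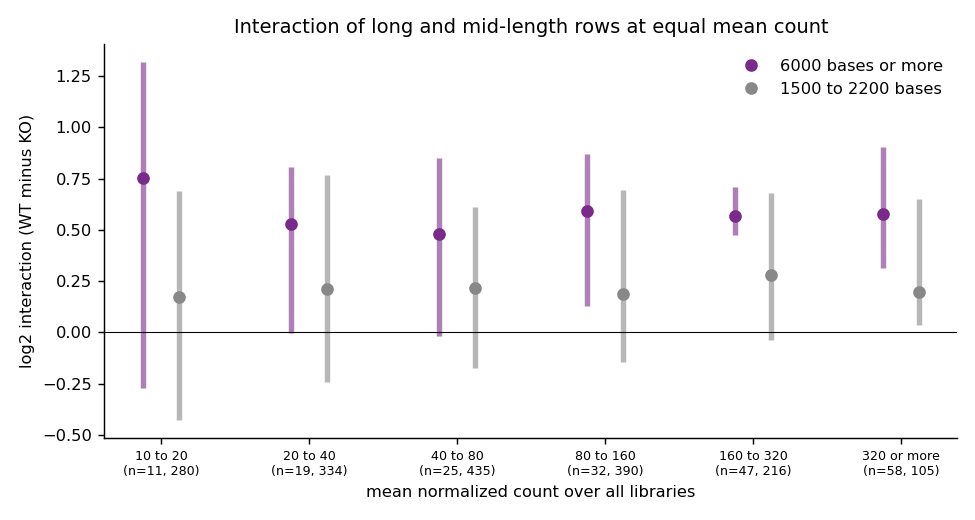
Median log2 interaction (WT minus KO; points) and interquartile range (bars) of long rows and of rows of 1500 to 2200 bases within classes of mean normalized count; n gives the long rows and then the shorter rows. The median of long rows lies between 0.48 and 0.75 in the 6 classes, above that of shorter rows, which lies between 0.17 and 0.28. The value of 0.75 is from the lowest class, where a high WT IP value helped some rows to be kept.

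Length and interaction went together up to about 4500 bases and little beyond. Over all rows with a mean count of at least 10, the median interaction was -0.47 under 250 bases, -0.35 from 250, -0.11 from 500, 0.09 from 1000, 0.22 from 1500, 0.36 from 2200, 0.47 from 3000 and 0.50 from 4500 bases. It was 0.54 in the 137 long rows under 8000 bases, 0.58 in the 37 rows of 8000 to 10000 bases and 0.43 in the 18 longer ones. The long rows thus lay at the upper end of a trend over all lengths, not apart from it. Spearman's rho between length and interaction was 0.04 over the 192 long rows and 0.40 over the 9917 rows, as a description across rows that share all libraries. Mean count and interaction gave 0.06 and 0.22 over the same rows.

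**Figure D2:**
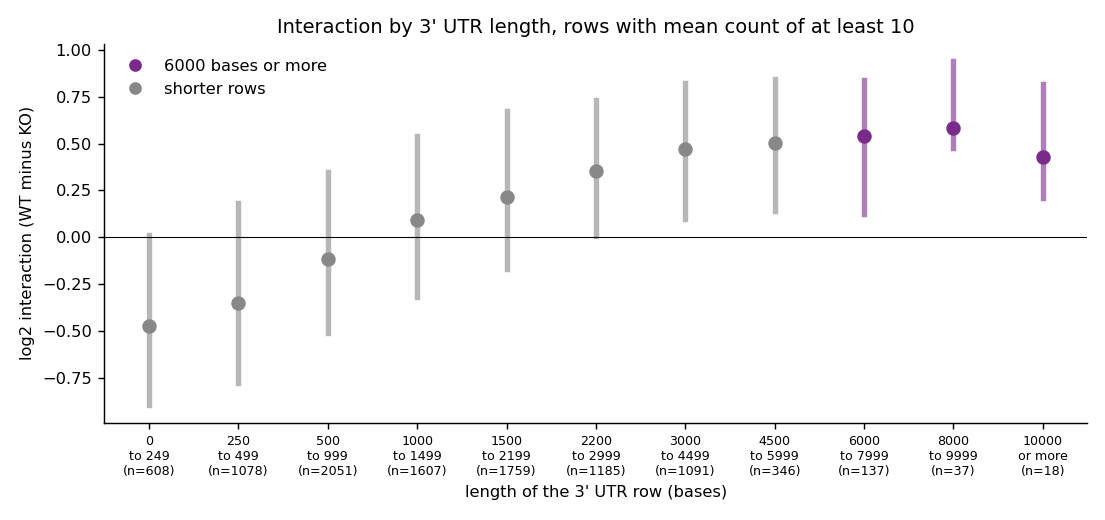
Median log2 interaction (WT minus KO; points) and interquartile range (bars) by length of the 3' UTR row in bases, with the number of rows in each class. The medians run from -0.47 in the shortest class to 0.50 in the last class under 6000 bases, and the 3 classes of long rows stand at 0.54, 0.58 and 0.43.

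The interaction joins 4 group values, and both IP and Input differed between genotypes in long rows. These differences are of the authors' group values and carry no error or test. In IP, the WT minus KO difference had a median of 0.27 and was above 0 in 147 long rows (76.6%), against 59.3% of shorter rows and 54.4% of all rows. In Input, the WT minus KO difference had a median of -0.22 and was above 0 in 22 long rows (11.5%), against 38.5% of shorter rows and 43.2% of all rows. No long row differed by 1 or more in Input (all rows, 0.373% higher in WT and 0.545% lower), while in IP 11 were higher in WT by at least 1 (all rows, 7.6%, shorter rows, 8.81%) and 2 lower (all rows, 3.18%, shorter rows, 1.53%). At equal mean count the IP difference was 0.26 in long rows and 0.12 in shorter rows, and the Input difference was -0.22 and -0.09. Beside the gap of 0.35 in interaction, long rows thus exceeded shorter rows by 0.14 in the IP difference and by -0.13 in the Input difference, which enters the interaction with its sign turned; medians of parts need not add up.

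Markers of other cell types also differed between the Inputs. Summed normalized counts of the 3 leukocyte markers were 203 in KO Input and 142 in WT Input, with 3 of 3 lower in WT, and those of the 4 fibroblast markers were 2442 and 2108, with 3 of 4 lower in WT. The 4 endothelial markers summed to 1428 in KO Input and 1220 in WT Input, with 3 of 4 lower in WT. The 6 epithelial markers summed to 1150 in KO Input and 1236 in WT Input, with 2 of 6 lower in WT. The 3 adipocyte markers summed to 104 in KO Input and 101 in WT Input, with 1 of 3 lower in WT. Adipoq and Plin1 had mean counts of only 2.52 and 0.82, against 106 for Fabp4, so the adipocyte sums are nearly those of Fabp4 alone. In the immunoprecipitates the endothelial sum was 907 in KO IP and 1867 in WT IP, and the leukocyte sum was 181 in KO IP and 78.8 in WT IP. The fibroblast sum was 2003 in KO IP and 1413 in WT IP, the epithelial sum was 1480.06 in KO IP and 1714 in WT IP, and the adipocyte sum was 119 in KO IP and 106 in WT IP. Single markers higher in WT IP were 4 of 4 endothelial, 3 of 6 epithelial, 2 of 3 adipocyte, 0 of 4 fibroblast and 0 of 3 leukocyte genes. The epithelial and adipocyte sums thus do not stand for all of their members. No marker was at 0 in Input. The part of cell makeup in the values of long rows was not tested.

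**Figure D3:**
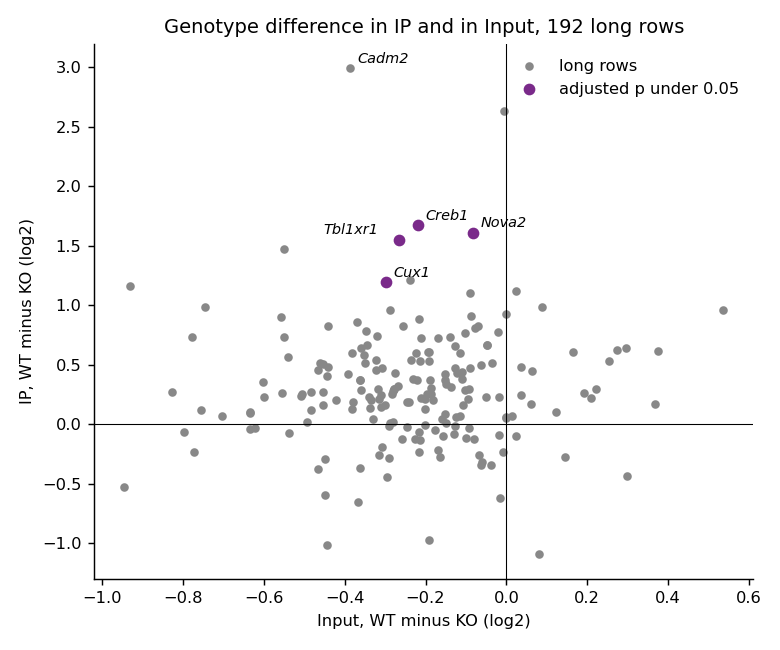
Each point is 1 of the 192 long rows, with the WT minus KO difference of the authors' log2 group values in Input (horizontal) and in IP (vertical). Most points lie left of 0 in Input (22 rows above 0) and above 0 in IP (147 rows), and the 4 rows past the adjusted threshold lie at 1 or more in IP; Cadm2, with no adjusted p, lies highest.

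Recovery over Input was broad in both genotypes. The KO IP minus KO Input difference of long rows had a median of 0.25, was above 0 in 108 rows (56.3%, against 60.6% of shorter rows and 49.3% of all rows). It was at least 1 in 43 (22.4%, against 18.3% of shorter rows and 14.2% of all rows) and at most -1 in 32 (16.7%, against 16% and 18.9%). In WT it had a median of 0.73, was above 0 in 133 rows (69.3%, against 63.6% of shorter rows and 50.6% of all rows). It was at least 1 in 84 (43.8%, against 28.6% of shorter rows and 22.2% of all rows) and at most -1 in 11 (5.73%, against 12.4% and 20.8%). The order of the rows was much alike in KO and WT, with a Spearman's rho of 0.87 over the 192 rows, as a description. IP was above Input in both genotypes in 103 long rows and below it in both in 54. It was below Input in KO and above it in WT in 30 (15.6%, against 9.6% of shorter rows and 9.59% of all rows), and the reverse in 5 (2.60%, against 6.59% and 8.31%). At equal mean count the KO recovery was 0.19 for long rows and 0.23 for shorter rows, while the WT recovery was 0.76 for long rows and 0.38 for shorter rows. The WT gap of 0.38 between long and shorter rows was 0.19 at a length of at least 8000 bases and 0.21 without rows that share bases with another row, and the KO gap of -0.04 changed sign under other limits. The longest rows were recovered less in both genotypes: in the 18 rows of 10000 bases or more the median was -0.18 in KO and 0.40 in WT.

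**Figure D4:**
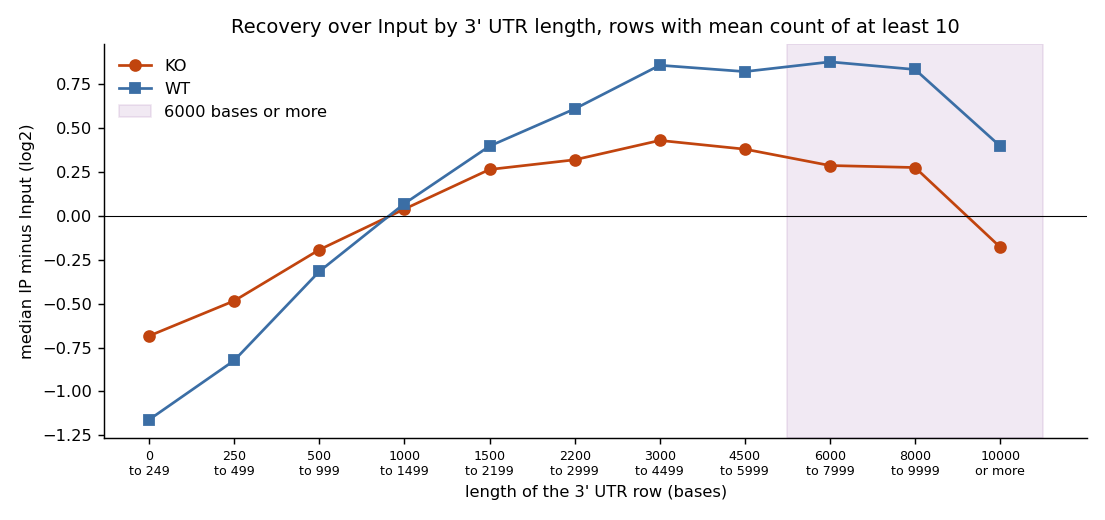
Median log2 IP minus Input difference in KO and in WT by length of the 3' UTR row in bases. KO lies above WT under 1000 bases (KO -0.68 and WT -1.16 in the shortest class) and below it among long rows (KO 0.29 and WT 0.88, KO 0.28 and WT 0.84, KO -0.18 and WT 0.40).

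The 4 long rows past the threshold encode regulators of transcription and splicing. Creb1, the transcription factor that answers cyclic AMP, has a 7169-base row at chr1:64597379-64604547. Its group values were 8.44 in KO IP and 10.11 in WT IP, and 8.64 in KO Input and 8.42 in WT Input. The KO immunoprecipitate was thus slightly under its Input and the WT one well above. The interaction of Creb1 in the authors' deposited table came to 1.91 ± 0.38 (SE; adjusted p = 0.00051 by the Wald test), the smallest p of any long row.

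Tbl1xr1, a subunit of the NCoR and SMRT corepressor complexes, has its row at chr3:22210428-22216594. It had 8.08 in KO IP and 9.63 in WT IP, and 7.32 in KO Input and 7.06 in WT Input, so that it was above Input in both genotypes. The authors' deposited table gave 1.89 ± 0.49 (SE; adjusted p = 0.0128 by the Wald test). Cux1, a homeobox factor, has its row at chr5:136266410-136274790. It had 7.30 in KO IP and 8.49 in WT IP, and 8.17 in KO Input and 7.87 in WT Input. The authors' deposited table held 1.54 ± 0.43 for Cux1 (SE; adjusted p = 0.0292 by the Wald test). Nova2, a splicing regulator of neurons, has its row at chr7:18958619-18965319. It had 5.45 in KO IP and 7.05 in WT IP, and 6.92 in KO Input and 6.83 in WT Input, a level below Input in KO and slightly above it in WT. The authors' deposited table gave 1.71 ± 0.48 for it (SE; adjusted p = 0.0293 by the Wald test). When the median of all tested rows was subtracted, only Creb1 of these 4 passed (adjusted p = 0.00757).

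Cadm2, a neuronal cell adhesion molecule, had the largest interaction of the long rows but no adjusted p, as its mean count was 32.1. It is named here after its values were seen. Its group values were 3.09 in KO IP and 6.08 in WT IP, and 4.48 in KO Input and 4.09 in WT Input. The authors' deposited table held an interaction of 3.60 ± 0.85 (SE; unadjusted p = 2.39e-05 by the Wald test). With the Wald p-values adjusted over every row that has one, 0.273% of rows passed 0.05 and were higher in WT. Cadm2 would pass there with 0.0153, beside Creb1 with 0.00165 and Tbl1xr1 with 0.0397, and Cux1 with 0.0914 and Nova2 with 0.0921 would not.

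Rows next to the threshold did not pass the authors' test. Rnf152, a ubiquitin ligase of lysosomes, had 4.20 in KO IP and 5.67 in WT IP, and 6.28 in KO Input and 5.73 in WT Input. For Rnf152 the authors' deposited table gave 2.08 ± 0.65 (SE; adjusted p = 0.0546 by the Wald test), larger than that of Creb1 but with a wider error. Helz, an RNA helicase, had 7.07 in KO IP and 8.28 in WT IP, and 9.20 in KO Input and 8.96 in WT Input. Its IP was thus below Input in both genotypes, and less so in WT. The authors' deposited table gave 1.58 ± 0.50 for Helz (adjusted p = 0.0573, Wald test), 1.51 ± 0.49 for Megf9, a membrane protein with EGF-like repeats (0.0816), and 1.32 ± 0.44 for Tmod2, which caps actin filaments in neurons (0.0893).

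**Figure D5:**
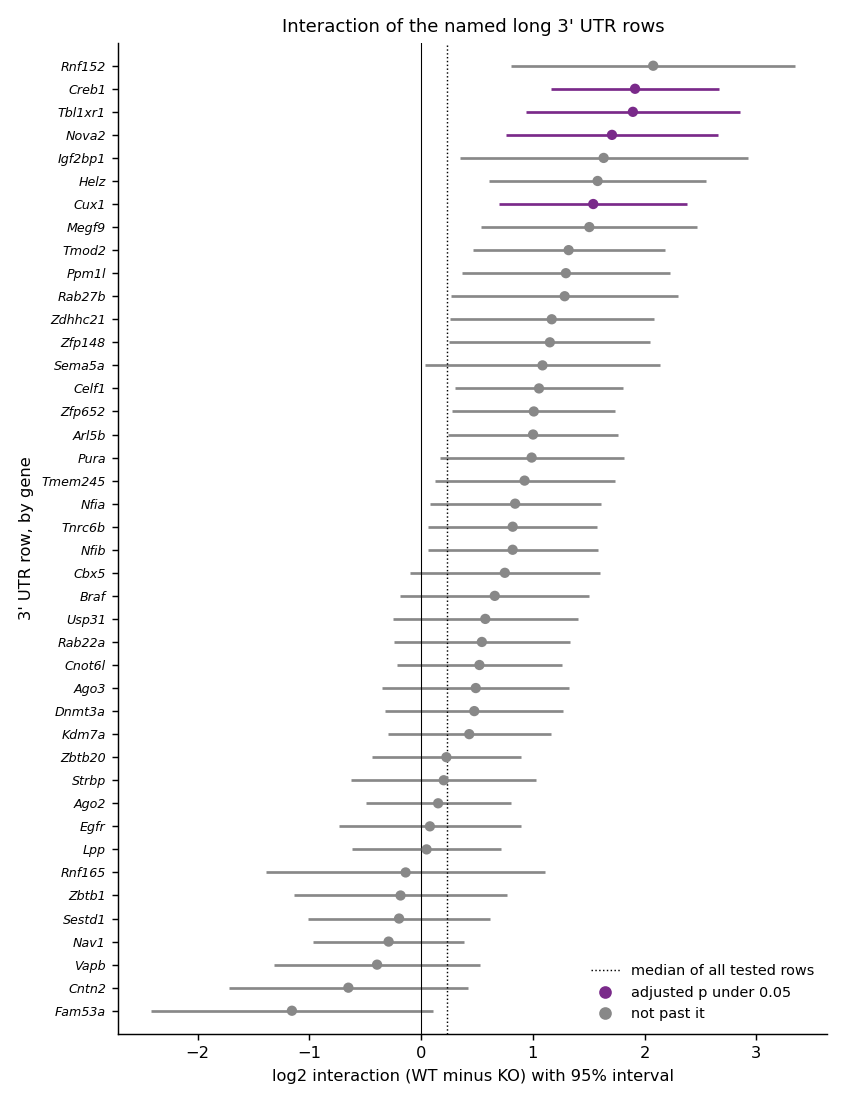
Log2 interaction (WT minus KO) of 42 named long rows from the authors' deposited table, with 95% intervals of 1.96 standard errors; the dotted line is the median of all tested rows, 0.23. The 4 rows past an adjusted p of 0.05 (Creb1, Tbl1xr1, Nova2 and Cux1) lie between 1.54 and 1.91, and 7 rows lie below 0.

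The long rows were then sorted by the role of their gene. The 8 role groups hold 111 long rows and were drawn up after the values had been seen, so they carry no test. A gene may stand in more than 1 of them. RNA-binding proteins and mRNA decay factors form a group of 17 with a median interaction of 0.65. All 17 were above 0, against 87.0% of all long rows. Of the 17, 1 passed the adjusted threshold (Nova2), against 2.50% of tested long rows, and 7 had an unadjusted p under 0.05, against 23.4% of all long rows and 7.86% of all rows. The group's median recovery was -0.36 in KO and 0.10 in WT.

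Celf1, which binds GU-rich elements and promotes mRNA decay, had 9.31 in KO IP and 9.98 in WT IP, and 10.41 in KO Input and 10.07 in WT Input. The authors' deposited table held 1.05 ± 0.38 for Celf1 (SE; adjusted p = 0.146 by the Wald test). Its paralogue Celf2 had 9.05 in KO IP and 9.42 in WT IP, and 9.99 in KO Input and 9.88 in WT Input, with 0.51 ± 0.37 in the authors' deposited table. Both were below Input in both genotypes. Dcp2, the catalytic subunit of the decapping enzyme, had 8.20 in KO IP and 9.03 in WT IP, and 6.41 in KO Input and 6.34 in WT Input. It was thus well above Input in both genotypes, with 0.93 ± 0.45 in the authors' deposited table (adjusted p = 0.329, Wald test). Rc3h1, known as Roquin-1, which binds stem loops and brings about mRNA decay, was also above Input in both, with 9.24 in KO IP and 9.61 in WT IP, and 7.62 in KO Input and 7.26 in WT Input.

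Of the factors of microRNA silencing, 3 have very long rows and 0 passed the test. Tnrc6b, a GW182 protein that joins Argonaute to the deadenylases, had 9.32 in KO IP and 9.86 in WT IP, and 9.69 in KO Input and 9.45 in WT Input. Ago2, the Argonaute with slicer activity, had 10.00 in KO IP and 9.93 in WT IP, and 10.05 in KO Input and 9.83 in WT Input, and its 4 values lay close together. Ago3 had 8.22 in KO IP and 8.14 in WT IP, and 7.68 in KO Input and 7.14 in WT Input. The authors' deposited table gave 0.82 ± 0.39 for Tnrc6b, 0.15 ± 0.33 for Ago2 and 0.49 ± 0.43 for Ago3 (SE). For Ago3 the interaction came from the Input values, as its IP value was lower in WT.

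Igf2bp1, an mRNA-binding protein of fetal tissues, had 3.24 in KO IP and 3.98 in WT IP, and 5.25 in KO Input and 4.48 in WT Input. The authors' deposited table gave 1.63 ± 0.66 (SE; adjusted p = 0.214 by the Wald test). Its deposited mean count of 111 was 5.44 times the mean of its back-transformed group values, 20.4. That ratio had a median of 1.02 over the long rows, and the next highest was 1.504. The reason was not tested.

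Sequence-specific transcription factors form a group of 22 long rows with a median of 0.59, of which 20 were above 0, 2 passed (Creb1 and Cux1) and 6 had an unadjusted p under 0.05. The last count is near the 23.4% of all long rows, of which 87.0% were above 0 and, where tested, 2.50% passed. The group is not complete, as related genes such as Zbtb1 (-0.18), Hdx (0.03), Prdm11 (0.31) and Zfp451 (0.95) stand outside it. Nfib had 10.58 in KO IP and 11.24 in WT IP, and 11.34 in KO Input and 11.21 in WT Input, and its relative Nfia had 9.35 in KO IP and 9.95 in WT IP, and 10.50 in KO Input and 10.31 in WT Input. Their interactions in the authors' deposited table were 0.82 ± 0.39 for Nfib and 0.84 ± 0.39 for Nfia (SE; adjusted p of 0.319 and 0.309 by the Wald test). The 2 nuclear factor I genes thus had much the same interaction. Tead1, a DNA-binding partner of YAP, had 0.14 ± 0.35 and Tbp, the TATA-binding protein, -0.02 ± 0.49 in the authors' deposited table, with adjusted p of 0.904 and 0.99 (Wald test).

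Chromatin regulators and transcription cofactors form a group of 18 with a median of 0.63, of which 17 were above 0 and 1 passed (Tbl1xr1), against 87.0% of all long rows and 2.50% of those tested. Their median recovery was 0.66 in KO and 1.45 in WT. Cbx5, the heterochromatin protein HP1 alpha, had 8.32 in KO IP and 8.85 in WT IP, and 7.10 in KO Input and 6.91 in WT Input. The DNA methyltransferase Dnmt3a had 7.996 in KO IP and 8.25 in WT IP, and 8.28 in KO Input and 8.09 in WT Input. The authors' deposited table gave 0.75 ± 0.43 for Cbx5 and 0.48 ± 0.41 for Dnmt3a (SE). Aff4, a scaffold of the super elongation complex, was above Input in both genotypes, with 10.55 in KO IP and 10.36 in WT IP, and 8.63 in KO Input and 8.32 in WT Input. Its interaction was small, 0.11 ± 0.34 in the authors' deposited table, so a high recovery did not go with a high interaction there.

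The receptors and ligands of mammary growth among the long rows were 6, all above 0, and none passed. Prlr, which receives the signal for milk protein synthesis, had 11.16 in KO IP and 11.29 in WT IP, and 11.37 in KO Input and 11.17 in WT Input, with 0.35 ± 0.42 in the authors' deposited table. Lifr, a receptor of leukemia inhibitory factor, had 10.09 in KO IP and 10.35 in WT IP, and 8.71 in KO Input and 8.15 in WT Input, with 0.82 ± 0.38 in the authors' deposited table (adjusted p = 0.306, Wald test). Lifr was above Input in both genotypes, while Prlr lay near its Input in both. Egfr, the receptor of epidermal growth factor and amphiregulin, had 9.50 in KO IP and 9.47 in WT IP, and 7.70 in KO Input and 7.60 in WT Input, with 0.08 ± 0.41 in the authors' deposited table. Its relative Erbb4 had 0.80 ± 0.82 at a mean count of 29.2, and the growth factor Igf1 had 0.17 ± 0.38 in the authors' deposited table.

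Membrane traffic genes gave 9 long rows with a median of 0.78, of which 5 had an unadjusted p under 0.05, against 23.4% of all long rows and 7.86% of all rows. None passed the adjusted threshold. Rab27b, a GTPase of secretory vesicles, had 6.19 in KO IP and 7.02 in WT IP, and 5.85 in KO Input and 5.41 in WT Input, with 1.28 ± 0.52 in the authors' deposited table (adjusted p = 0.215, Wald test). Arl5b, an Arf-like GTPase of the Golgi, had 9.09 in KO IP and 9.68 in WT IP, and 7.84 in KO Input and 7.46 in WT Input, with 1.001 ± 0.39 in the authors' deposited table (adjusted p = 0.189, Wald test). Both stood above Input in both genotypes. Vapb, which tethers the endoplasmic reticulum to other membranes, was the member below 0, with -0.39 ± 0.47 in the authors' deposited table.

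Kinases and phosphatases form a group of 17 with a median of 0.48, of which 13 were above 0 and 2 had an unadjusted p under 0.05, against 87.0% and 23.4% of all long rows. Ppm1l, a phosphatase of the PP2C family, had 6.33 in KO IP and 7.29 in WT IP, and 7.32 in KO Input and 7.04 in WT Input. Taok1, a kinase upstream of p38 and Hippo signalling, had 10.02 in KO IP and 10.50 in WT IP, and 9.26 in KO Input and 8.82 in WT Input. The authors' deposited table gave 1.30 ± 0.47 for Ppm1l and 0.98 ± 0.43 for Taok1 (adjusted p of 0.146 and 0.275 by the Wald test). Braf, a RAF kinase, had 0.66 ± 0.43 in the authors' deposited table. Braf had 8.41 in KO IP and 8.53 in WT IP, and 8.40 in KO Input and 7.92 in WT Input, so that KO IP lay at its Input and WT IP above it.

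The ubiquitin system gave 10 long rows with a median of 0.60, 9 above 0 and 3 with an unadjusted p under 0.05, near the 87.0% and 23.4% of all long rows. Mib1, the ligase that drives endocytosis of Notch ligands, had 9.45 in KO IP and 10.26 in WT IP, and 7.38 in KO Input and 7.30 in WT Input, with 0.93 ± 0.40 in the authors' deposited table (adjusted p = 0.268, Wald test). Neuronal channels, transporters and adhesion molecules gave 13 long rows with the widest range, -0.77 to 3.60, and a median of 0.85. Of these 13, 5 had an adjusted p, against 83.3% of all long rows, and 9 were above 0, against 87.0%. Sema5a, an axon guidance semaphorin, had 6.72 in KO IP and 7.23 in WT IP, and 6.75 in KO Input and 6.29 in WT Input, with 1.09 ± 0.54 in the authors' deposited table (adjusted p = 0.344, Wald test).

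The remaining 81 long rows stood in no role group and none passed. Their median interaction was 0.50, with a range of -1.16 to 2.89. Of the 81, 69 were above 0 and 15 had an unadjusted p under 0.05, near the 87.0% and 23.4% of all long rows. Atxn1, the polyglutamine protein ataxin-1, had 8.89 in KO IP and 9.61 in WT IP, and 8.57 in KO Input and 8.35 in WT Input, with 0.97 ± 0.41 in the authors' deposited table (adjusted p = 0.248, Wald test). Xpo7, a nuclear export receptor, had 6.71 in KO IP and 7.60 in WT IP, and 7.16 in KO Input and 6.95 in WT Input, with 1.19 ± 0.50 in the authors' deposited table (adjusted p = 0.251, Wald test). Its IP was thus below Input in KO and above it in WT. Deptor, an inhibitor of mTOR, lay below Input in both genotypes, with 9.22 in KO IP and 9.36 in WT IP, and 10.51 in KO Input and 10.17 in WT Input.

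The 32 long rows without an adjusted p had a median interaction of 0.56 and a median standard error of 0.82, and 22 were above 0. An unadjusted p under 0.05 was reached by 4 of them, all higher in WT: Cadm2, Pde1c, Hecw2 and the gene model C77370. Pde1c, a phosphodiesterase of cyclic nucleotides, had 2.53 in KO IP and 5.17 in WT IP, and 3.01 in both Inputs, at a mean count of 14.04. The authors' deposited table gave 2.89 ± 1.13 for it (SE; unadjusted p = 0.0108 by the Wald test). C77370 had 3.28 in KO IP and 4.44 in WT IP, and 3.78 in KO Input and 2.85 in WT Input. Its mean count was 12.9. Pde1c and C77370 thus lay near the minimum mean count, and WT IP was the highest group value of each. That mean includes WT IP, so a high WT IP value helped these rows to be kept. Their unadjusted p-values are therefore not independent of the choice of rows and are given only as a description. Hecw2, a ubiquitin ligase, had 5.42 in KO IP and 6.40 in WT IP, and 3.96 in KO Input and 3.22 in WT Input. Both IP values of Hecw2 were above their Inputs, unlike the KO IP value of Pde1c.

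The long rows of 21 gene lists drawn up for the series as a whole were also counted. Of those lists, 10 held a long row, 35 rows in all. The list of 3' UTR-binding proteins held 6 long rows with a median of 1.01, of which 1 passed, against a median of 0.36 over its 27 other rows, of which 0 passed. Its 6 long rows include Atxn1, which stands in no role group above, and Igf2bp1, whose mean count did not match its group values. Transcription factors gave 0.56 over 8 long rows and 0.56 over 48 others, with 1 and 3 passing. Chromatin regulators gave 0.45 over 6 long rows and 0.47 over 45 others, with 0 and 2 passing. In both of those lists the long rows and the others thus had like medians. Rab GTPases gave 0.91 over 2 long rows and 0.21 over 36 others, with 0 passing in either. The CPEB family, D cyclins, Wnt and Notch genes, TGF-beta genes, apoptosis regulators and cadherins had no long row.

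None of the 6 longest rows passed the test. Zbtb20 had 11.79 in KO IP and 11.77 in WT IP, and 12.33 in KO Input and 12.09 in WT Input. For Zbtb20 the authors' deposited table gave 0.23 ± 0.34 (SE; adjusted p = 0.833 by the Wald test), at the median of all tested rows. Another row shares bases with it on the same strand. Strbp, which binds double-stranded RNA, and Lpp had 0.20 ± 0.42 and 0.05 ± 0.34 in the authors' deposited table. Zbtb20, Strbp, Lpp, Ago2 and Egfr all lay below 0 when the median of all tested rows was subtracted. Pura, which binds purine-rich sequences, and Tmem245, a membrane protein, had 0.99 ± 0.42 and 0.93 ± 0.41 in the authors' deposited table (adjusted p of 0.251 and 0.28 by the Wald test).

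The 25 long rows below 0 could pass only as lower in WT, and 0 of all 5327 tested rows did so. Fam53a had 6.19 in KO IP and 5.10 in WT IP, and 5.04 in KO Input and 5.13 in WT Input. It was above Input in KO and level with Input in WT, and the authors' deposited table gave -1.16 ± 0.64 (SE; adjusted p = 0.433 by the Wald test). Cntn2, a neuronal adhesion molecule, had 5.92 in KO IP and 4.91 in WT IP, and 7.04 in KO Input and 6.60 in WT Input, with -0.65 ± 0.55 in the authors' deposited table. Nav1, a microtubule-associated protein of growing axons, was far better measured, with a mean count of 604. It had 8.25 in KO IP and 7.90 in WT IP, and 9.89 in KO Input and 9.83 in WT Input, with -0.29 ± 0.34 in the authors' deposited table (adjusted p = 0.77, Wald test).

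Rows on either side of the limits are given as a description. Just inside the length limit lay Brwd3 with 6000 bases and an interaction of 0.11, Megf9 with 6015 and 1.51, and Ildr2 with 6028 and 0.53. Just outside lay Setd7 with 5988 and 0.50, Pi15 with 5968 and 0.49, and Hnrnpr with 5953 and 0.08, all from the authors' deposited table. Just inside the limit on mean count lay Edaradd with 10.8 and an interaction of -0.27, Slc1a2 with 10.9 and 1.18, and Rgs17 with 12.5 and -0.28. Just outside lay Slc4a8 with 8.56 and -0.56, Itsn1 with 7.22 and -0.12, and St8sia1 with 3.08 and 0.93, from the authors' deposited table, with standard errors of 1.13 to 2.08 for these 6 rows.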

How the data were processed

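RIP-seq of CPEB2-associated RNA was analysed from 1 deposited table of mm10 3' UTR rows. Bowtie 0.12.9, Bowtie2 2.2.2 and DESeq2 are listed, without roles, in the submitters' processing notes, and no source used here gives the counting rule or its use of strand. The authors deposited 1 log2 value per group, which behaves as a mean log2 of normalized counts, a mean normalized count per row (a signal), and the interaction as a log2 fold change and standard error. The Wald score and the p-value of that interaction, with its adjusted p, were also deposited by the authors, and 5327 rows with a mean count of at least 42.9 have an adjusted p. Spearman's rho between the interaction and the same difference of group values was 0.998 over those rows, which gives its direction. The 8 columns of single libraries are named by index alone and were not used, so no test was run beyond the authors'. Group differences carry no error.

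Medians were compared within classes of mean count starting at 10, 20, 40, 80, 160 and 320, weighted by the number of long rows. This step was tested on simulated data. Named rows were the 16 with the largest interaction past an adjusted p of 0.05, filled by p, the 6 with the smallest p below 0, the 6 longest, up to 3 per gene list, and rows beside the limits. Further rows were named after their values were seen, as members of a role group, and a few are not reported here. Members, lists and tests were chosen with earlier results of these data known. Alternatives changed the threshold, adjustment, centring, length and mean count limits, comparison lengths and overlapping rows. RefSeq tables (GRCm38.p6) gave microRNA sequences and gene spans. Scripts ran in Python 3.11.15 (pandas 2.3.3, numpy 2.4.6, matplotlib 3.10.9, scipy 1.17.1).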

Additional observations from a re-analysis of the deposited data

Results flagged for a closer look

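The authors' interaction is itself a test of whether the IP to Input difference differs between the genotypes, and 4 long rows passed it, all higher in WT. Of all 5327 tested rows, 0 passed it as lower in WT. In the authors' deposited table these were Creb1 with 1.91, Tbl1xr1 with 1.89, Nova2 with 1.71 and Cux1 with 1.54. In each of them the WT minus KO difference was above 1 in IP and below 0 in Input.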

How the results depend on the processing

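The count of long rows past the authors' threshold (4) was 8 at an adjusted p of 0.10, 1 after subtracting the tested rows' median, 12 at a length of at least 5000 bases and 1 at a length of at least 8000 bases. The share of long rows above 0 (87.0%) was 74.5% with the median subtracted and 94.5% at 8000 bases or more. With the median subtracted, Zbtb20 (-0.0045), Strbp (-0.028), Lpp (-0.18), Ago2 (-0.079) and Egfr (-0.15) changed sign, and Tbl1xr1 (1.66), Nova2 (1.48) and Cux1 (1.31) no longer passed. The difference of medians between long and shorter rows lay between 0.27 and 0.36 over the reported setting and 12 alternatives. Its IP part lay between 0.12 and 0.15 and its Input part between -0.16 and -0.12 over the reported setting and 10 alternatives each. The WT recovery difference lay between 0.19 and 0.43, and the KO recovery difference, between -0.13 and 0.02, had no settled sign. The causes were not tested. Some of these alternatives were chosen after seeing the data. No paired analysis was possible because the columns of single libraries are not tied to samples, and for the same reason no replicate could be left out in turn. Precision rests on the authors' standard errors, and the depth is unknown here.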
